A study of Mus musculus with 13 samples.

Results

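The 35 genes described here are p53 and its family members, the inhibitors that hold p53 down, the genes p53 switches on, and the kinase inhibitors and retinoblastoma gene of the senescence barrier. They were taken by gene symbol from a list of names that was drawn up with earlier results of these data known. All 35 were among the 24495 genes of the deposited read count table, and all 35 were among the 14607 genes that passed the filter on low counts. By role they comprise 3 p53 family genes, 2 p53 inhibitors, 5 cyclin-dependent kinase inhibitors, the retinoblastoma gene, 8 targets in growth arrest and stress, 3 in antioxidant and nutrient control, and 13 in apoptosis.

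The study used RNA sequencing of mouse embryonic fibroblasts (MEFs) to follow the early reprogramming of somatic cells to pluripotency with and without the enzyme Tet2. All groups derived from MEFs of embryonic day 12.5 with the strain label V6.5 129XBI/6, of genotype Tet2-/- with OKSM (Pou5f1, Klf4, Sox2 and Myc, induced by doxycycline) and rtTA, the transactivator that doxycycline activates. Tet2-WT cells (n = 3), Tet2-E cells (n = 4) and pMXs cells (n = 3) had received a pMXs retroviral vector that carried wild-type Tet2, a mutant described as stalling, or no insert, and were collected at day 5 of reprogramming. They had been seeded on growth-arrested MEF feeder cells and kept at 5% oxygen with LIF at 1000 U/mL, doxycycline at 2 µg/mL, the MEK inhibitor PD0325901 at 1 µM and the GSK3 inhibitor CHIR99021 at 3 µM.

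Untreated cells (n = 3) were MEFs that had not been reprogrammed, and they too were kept at 5% oxygen. The sample labels give the genotypes as T2D-WT, T2D-E, T2D-vector and MEF-control without spelling out the codes. The series text counts the Untreated cells among those with an empty vector and the sample labels do not, so vector infection may or may not separate pMXs from Untreated cells. All 4 groups carry the Tet2-/- label, and no group with intact Tet2 was among them. The protocols name no sort and no feeder removal, so in these bulk libraries fewer cells of a type and less RNA per cell cannot be told apart. Whether the replicates came from separate cultures is not given, and the p-values therefore cover only the spread among these 13 libraries.

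The protein p53, encoded by Trp53 in the mouse, is a transcription factor that cells stabilise under stress, and its targets halt the cell cycle, promote apoptosis or limit oxidative damage. The Cdkn2a and Cdkn2b genes lie side by side and encode Ink4 inhibitors of the kinases that inactivate the retinoblastoma protein, and Cdkn2a also encodes Arf, which blocks Mdm2 and so frees p53. Both arms are known to limit the reprogramming of fibroblasts, and loss of p53 or of the Ink4a/Arf products raises the yield of pluripotent colonies. TET enzymes oxidise 5-methylcytosine, which in mammals lies mostly at CG dinucleotides, first to 5-hydroxymethylcytosine and then to further oxidised bases.

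Promoter sequences are shown because p53 acts through short sites near its targets and Tet2 acts at CG dinucleotides. RefSeq windows on GRCm38.p6, of 300 bases each (250 before and 50 after a start), were matched by symbol for 28 of the 35 genes, 38 windows in all. Trp63, Rb1, Zmat3, Tnfrsf10b, Pmaip1, Perp and Trp53inp1 had none in the table. An exact match to the 10-base p53 half-site consensus, which reads the same on both strands, occurred in windows of 10 of the 28 genes (35.7%) and in 9.55% of the 27025 genes of the whole table. Per window, the share was 28.9% for these genes and 8.36% for the 32851 windows of the table. The 10 genes were Aen, Bax, Ccng1, Cdkn1a, Cdkn2d, Ei24, Gadd45a, Mdm2, Sesn1 and Trp53. In the first window of Cdkn1a 2 half-sites lay 12 bases apart, within the 13 bases allowed for a full site, an arrangement in 0.074% of all genes. A match is a description of the letters and not a binding site. Exact half-sites are in capitals in these stretches of the gene strand. The stretches were chosen for the best-known cell cycle target, for p53 itself and its main inhibitor, and for Sesn1, which changed with Tet2-WT. The last 10 bases of the Cdkn1a stretch differ from the consensus at their first base alone and stay in lower case.
Cdkn1a (chr17:29090896-29090947, plus strand): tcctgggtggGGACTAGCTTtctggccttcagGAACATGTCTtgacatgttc
Mdm2 (chr10:117710925-117710954, minus strand): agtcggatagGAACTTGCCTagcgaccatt
Trp53 (chr11:69580274-69580303, plus strand): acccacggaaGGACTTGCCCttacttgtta
Sesn1 (chr10:41887256-41887285, plus strand): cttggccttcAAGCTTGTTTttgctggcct

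Windows of these genes held a median of 22 CG dinucleotides, from 1 to 46, against a median of 7 over all windows. Gdf15, which had the largest rise among these genes with Tet2-WT, was at the low end, with 1 and 7 in its 2 windows. Cdkn2b had 18 in its window, Cdkn2a had 45 and 12, and Trp73 had 39 and 6. DNA methylation was not analysed here. The 250 bases before both Gdf15 starts and before the Cdkn2b start follow on the gene strand, with each CG in capitals, because Gdf15 rose most with Tet2-WT and Cdkn2b had the lowest log2 fold change of the 35 genes in pMXs against Untreated cells.
Gdf15, first window (chr8:70632457-70632706, minus strand): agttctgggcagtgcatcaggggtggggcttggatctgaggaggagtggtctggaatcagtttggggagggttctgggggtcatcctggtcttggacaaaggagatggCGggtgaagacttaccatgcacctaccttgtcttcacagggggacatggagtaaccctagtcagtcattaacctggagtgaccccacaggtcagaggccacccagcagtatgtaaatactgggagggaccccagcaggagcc
Gdf15, second window (chr8:70632096-70632345, minus strand): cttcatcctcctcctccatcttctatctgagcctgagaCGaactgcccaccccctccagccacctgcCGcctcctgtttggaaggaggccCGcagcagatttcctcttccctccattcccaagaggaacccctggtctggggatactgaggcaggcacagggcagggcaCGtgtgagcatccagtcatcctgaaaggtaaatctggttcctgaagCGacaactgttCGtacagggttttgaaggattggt
Cdkn2b (chr4:89311033-89311282, minus strand): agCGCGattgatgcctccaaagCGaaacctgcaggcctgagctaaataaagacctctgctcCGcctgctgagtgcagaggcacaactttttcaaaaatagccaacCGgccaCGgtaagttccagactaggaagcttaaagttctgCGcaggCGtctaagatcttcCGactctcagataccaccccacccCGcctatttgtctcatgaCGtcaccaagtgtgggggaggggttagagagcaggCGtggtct

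Total counts per library were 20261396 to 25720579 for Tet2-WT, 14052646 to 26265382 for Tet2-E, 14310277 to 25326826 for pMXs and 21985590 to 25991708 for Untreated cells. Levels are given as CPM, the reads of a gene scaled to a common library size. Tet2 RNA stood at 1180 to 1240 CPM with Tet2-WT, at 1300 to 1400 CPM in replicates 1, 2 and 250 of Tet2-E but 581 CPM in its replicate 100, at 39.1 to 58.8 CPM with pMXs and at 37.8 to 48.3 CPM in Untreated cells. Gene-level counts in the last 2 groups do not check the loss of native Tet2, since they do not show which part of the gene the reads cover. The OKSM genes were high in every day 5 library, with Pou5f1 at 183 to 285 CPM against 1.27 to 3.16 CPM in Untreated cells, and they were lowest in Tet2-E replicate 2. The summed level of 10 fibroblast markers was 16600 to 17700 CPM with Tet2-WT, 19700 to 21100 CPM with Tet2-E, 21600 to 25500 CPM with pMXs and 42100 to 46000 CPM in Untreated cells. Untreated cells thus carried the markers of their label, with 10 of 10 at 1 CPM or more in every library.

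**Figure D1:**
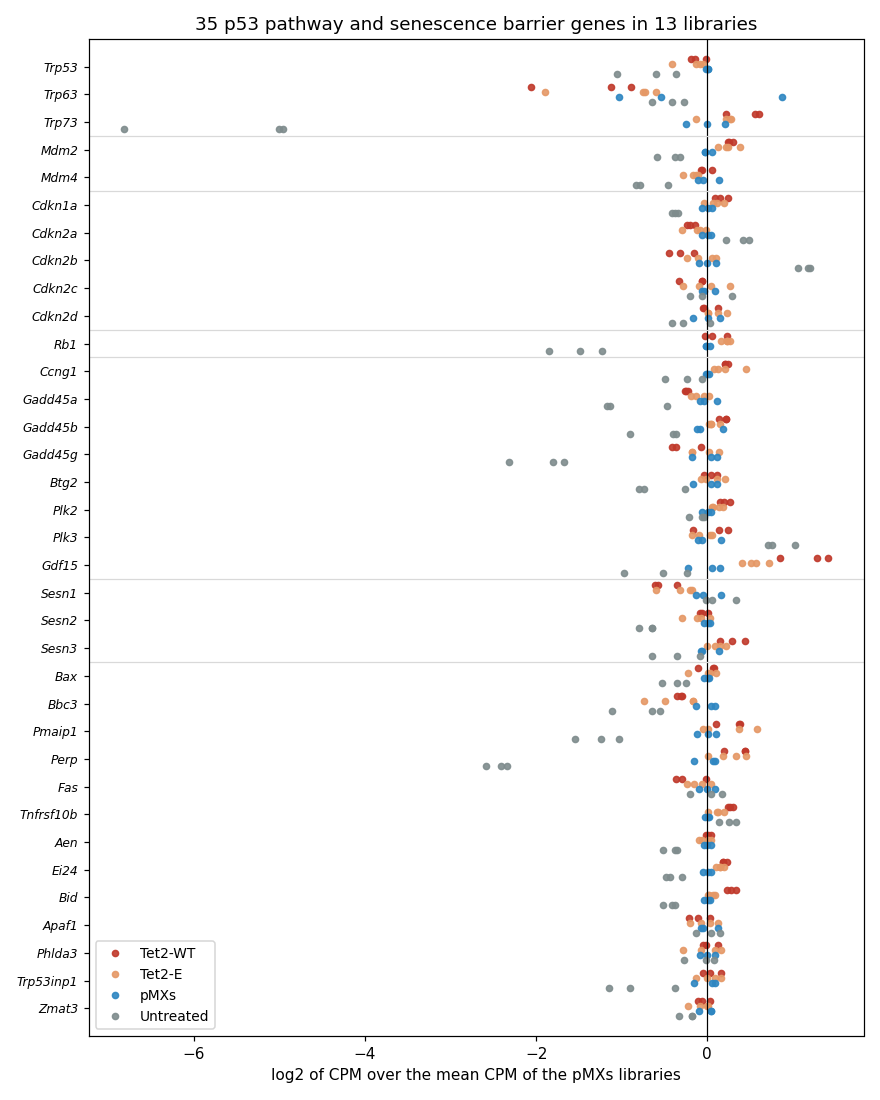
Each point is 1 library and gives the log2 of its level (CPM) over the mean of the 3 pMXs libraries, for the 35 genes grouped by role from top to bottom. Untreated libraries (grey) lie left of 0 for most genes and right of 0 for Cdkn2a, Cdkn2b, Plk3 and Tnfrsf10b, while Tet2-WT (red) and Tet2-E (orange) lie near 0 for most genes and to the right for Gdf15.

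The pMXs cells were set against Untreated cells first. The 2 groups differ in OKSM induction for 5 days and, with it, in feeder cells, LIF, both inhibitors and possibly the vector, so these cannot be told apart. The words rose, fell and changed are used of a gene whose edgeR quasi-likelihood adjusted p, by Benjamini-Hochberg over all 14607 genes, was under 0.05 in the comparison at hand. Of the 35 genes 23 rose and 4 fell (27, or 77.1%), beside 70.1% of all genes tested that changed, 35% up and 35% down. The share that changed was thus near that of all genes, while the direction was mostly upward: the median log2 fold change was 0.40 for the 35 genes and -0.00133 for all genes. Libraries of the 2 groups did not overlap for 27 of the 35 genes, 23 higher and 4 lower, beside 72% of all genes (36.1% higher and 35.9% lower). The genes that fell were the Ink4 genes Cdkn2a and Cdkn2b, the kinase gene Plk3 and the death receptor gene Tnfrsf10b. Summed epithelial markers were 462 to 612 CPM in pMXs cells against 20.9 to 36.3 CPM in Untreated cells, and fibroblast markers were lower, as given above. The part of this shift in the results was not tested.

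Trp53 and both of its inhibitors rose. Trp53 RNA was 150 to 153 CPM in pMXs libraries and 72.8 to 118 CPM in Untreated ones, a log2 fold change of 0.64 ± 0.14 (SE; edgeR adjusted p = 0.000556). Mdm4, which binds p53 and blocks its activity, was at 168, 175 and 199 CPM in pMXs replicates 2, 100 and 250, against 101, 105 and 131 CPM in Untreated replicates 1, 2 and 100. Every pMXs library was above every Untreated one (log2 fold change 0.69 ± 0.10, edgeR adjusted p = 1.23e-05). Mdm2, the ubiquitin ligase that degrades p53 and is itself a p53 target, was at 402, 427 and 402 CPM in pMXs cells and 272, 315 and 329 CPM in Untreated cells, again without overlap (0.43 ± 0.08, edgeR adjusted p = 0.000247).

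Trp73, the gene of the p53 relative p73, was at 4.69, 3.95 and 5.41 CPM in pMXs replicates 2, 100 and 250, against 0.0416, 0.151 and 0.146 CPM in Untreated replicates 1, 2 and 100. Its Untreated libraries held 1, 3 and 3 reads. The summed counts were 256 reads in pMXs libraries and 7 reads in Untreated ones, a depth-scaled ratio of 41.7 with a 95% interval of 19.9 to 105 that covers counting error only (edgeR adjusted p = 1.22e-09). The counts do not part the long and short forms of p73, which act in opposite ways. Trp63, whose product p63 marks basal epithelium, stayed near 1 CPM in most libraries, with 0.951, 1.34 and 3.56 CPM in pMXs cells and 1.25, 1.46 and 1.61 CPM in Untreated cells, and did not pass (edgeR adjusted p = 0.412). The pMXs replicate 250 alone was high.

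Kinase inhibitors split by gene. Cdkn2b, which encodes p15Ink4b, was at 71.1, 66 and 61.9 CPM in pMXs replicates 2, 100 and 250 and at 152, 150 and 138 CPM in Untreated replicates 1, 2 and 100. All pMXs libraries lay below all Untreated ones, with a log2 fold change of -1.14 ± 0.10 (edgeR adjusted p = 5.12e-08). Its neighbour Cdkn2a, whose counts merge the p16Ink4a and p19Arf transcripts, was at 103 to 111 CPM in pMXs cells and 125 to 151 CPM in Untreated cells (-0.38 ± 0.08, edgeR adjusted p = 0.000819). Cdkn1a, which encodes p21, the kinase inhibitor that p53 induces, moved the other way. It stood at 1070 to 1160 CPM in pMXs libraries against 837 to 881 CPM in Untreated ones (0.38 ± 0.07, edgeR adjusted p = 0.000322).

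The other Ink4 genes did not pass. Cdkn2c (p18Ink4c) had a log2 fold change of -0.02 (95% interval -0.33 to 0.28, edgeR adjusted p = 0.893). Cdkn2d (p19Ink4d) had 0.21 (-0.04 to 0.47, edgeR adjusted p = 0.121) and passed when Untreated replicate 1 was left out (0.35, edgeR adjusted p = 0.0138). Rb1, the retinoblastoma gene whose product holds E2F factors in check, was at 129, 133 and 129 CPM in pMXs cells against 36.3, 46.4 and 55.5 CPM in Untreated cells. The groups were far apart relative to their spread (1.5 ± 0.12, edgeR adjusted p = 1.79e-08). Of the Rb1 exons 2.26% overlap Rcbtb2 on the other strand, and whether reads were counted by strand is not given.

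**Figure D2:**
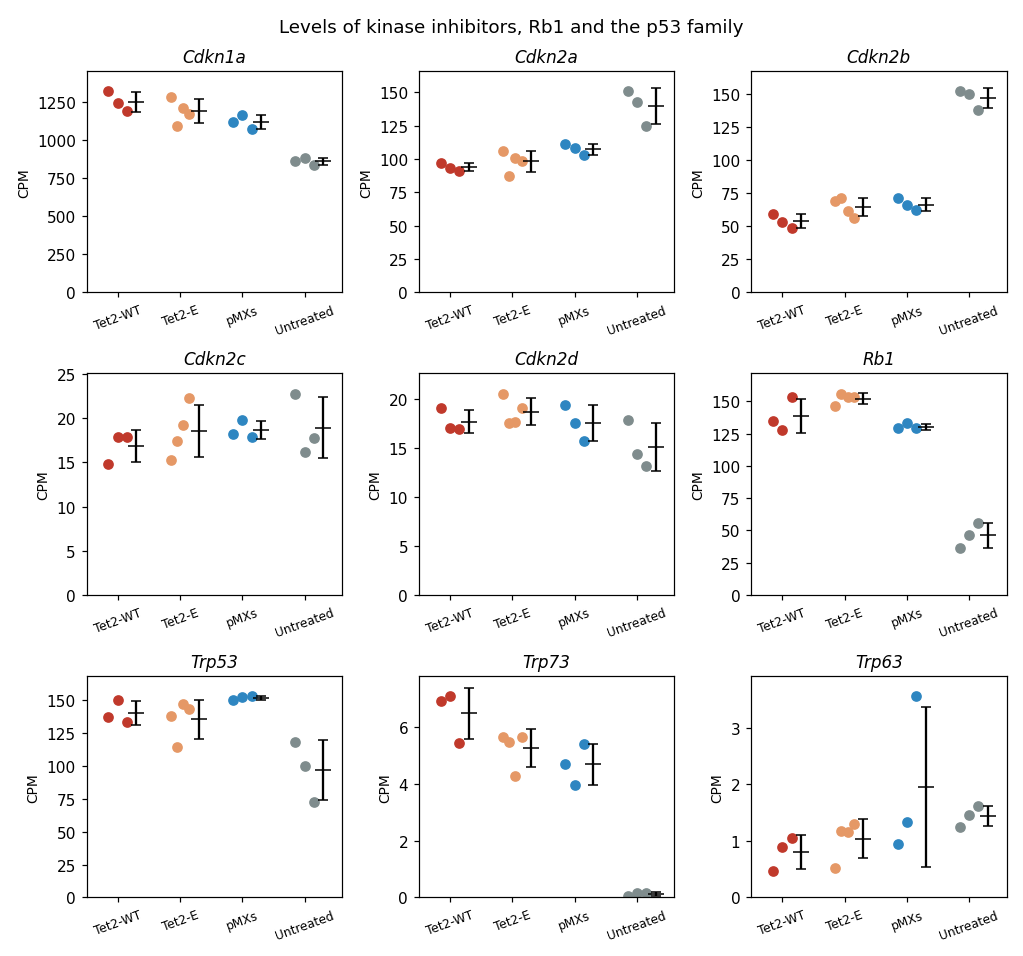
Level in CPM of the 5 kinase inhibitors, Rb1 and the 3 p53 family genes in each library (points), with the mean and SD of each group beside them (black). Cdkn2a and Cdkn2b are highest in Untreated cells and Cdkn1a, Rb1, Trp53 and Trp73 are lowest there, with small differences among the 3 day 5 groups.

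Among the 8 growth arrest and stress genes 6 rose, Plk3 fell and Plk2 did not pass, beside 35% of all genes up and 35% down. Gadd45g, a stress gene that can activate the p38 kinase pathway, was at 155, 180 and 190 CPM in pMXs replicates 2, 100 and 250, against 54.7, 50.2 and 35 CPM in Untreated replicates 1, 2 and 100. It had the largest rise of the 3 Gadd45 genes, 1.91 ± 0.15 on the log2 scale (edgeR adjusted p = 2.99e-08), with no overlap. Gadd45a, a p53 target in growth arrest, was at 40, 44.4 and 38.7 CPM in pMXs cells against 18.2, 18.7 and 29.7 CPM in Untreated cells (0.89 ± 0.14, edgeR adjusted p = 4.37e-05). Untreated replicate 100 was the highest of its group, and 19.5% of the Gadd45a exons overlap a transcript on the other strand. Plk3, a stress kinase, was at 9.19, 7.89 and 7.6 CPM in pMXs cells against 16.8, 13.9 and 13.5 CPM in Untreated cells (-0.84 ± 0.13, edgeR adjusted p = 3.37e-05), below in every library, and shares 3.53% of its exons with Tctex1d4 on the other strand.

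The remaining arrest genes had smaller changes. Gadd45b rose by 0.54 and Btg2, an antiproliferative p53 target, by 0.58 on the log2 scale (edgeR adjusted p = 0.00091 and 0.000631). Gdf15, a secreted stress cytokine of the TGF-beta family, rose by 0.55 ± 0.18 (edgeR adjusted p = 0.0122), which did not pass without Untreated replicate 100 (0.37, edgeR adjusted p = 0.0594). Ccng1, the p53 target cyclin G, rose by 0.255 with an edgeR adjusted p of 0.0453. That call was lost when any one of the libraries other than Untreated replicate 100 was left out, namely pMXs replicates 2, 100 and 250 and Untreated replicates 1 and 2, with log2 fold changes of 0.15 to 0.27 and edgeR adjusted p from 0.0747 to 0.216. Plk2, another stress kinase, had 0.10 (edgeR adjusted p = 0.199).

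Sestrins are stress proteins that limit oxidative damage and restrain growth signalling. Sesn2 was at 178, 186 and 184 CPM in pMXs libraries and 117, 117 and 105 CPM in Untreated libraries, a gap many times the spread within each group (0.69 ± 0.08, edgeR adjusted p = 1.5e-06). Sesn3 rose by 0.34 ± 0.12 (edgeR adjusted p = 0.0185). Its call was lost without pMXs replicate 2 (0.275, edgeR adjusted p = 0.0808) or Untreated replicate 1 (0.21, edgeR adjusted p = 0.0978). Sesn1 had -0.13 ± 0.12 and did not pass (edgeR adjusted p = 0.355).

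In the apoptosis group 9 of 13 genes rose, Tnfrsf10b fell, and Fas, Apaf1 and Phlda3 did not pass, beside 35% of all genes up and 35% down. Perp, a p53 target of the plasma membrane that is also a desmosome protein of epithelia, was at 406, 400 and 343 CPM in pMXs replicates 2, 100 and 250, against 63.9, 72.1 and 75.4 CPM in Untreated replicates 1, 2 and 100. The log2 fold change of 2.44 ± 0.12 had the smallest p of the 35 genes (edgeR adjusted p = 1.07e-10). Pmaip1, which encodes the BH3-only protein Noxa, was at 190, 178 and 163 CPM in pMXs cells and 60.5, 74.6 and 86.3 CPM in Untreated cells, without overlap (1.27 ± 0.16, edgeR adjusted p = 6.19e-06). Perp is also expressed by epithelial cells, whose summed markers were higher in the same libraries, and the part of this in the Perp rise was not tested.

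Bid, the BH3-only protein that links death receptors to mitochondria, was at 44.1, 43.6 and 42 CPM in pMXs cells and 32.6, 30.1 and 33.2 CPM in Untreated cells (0.435 ± 0.07, edgeR adjusted p = 3.29e-05). Aen, an apoptosis-enhancing nuclease, was at 115, 121 and 117 CPM in pMXs cells and 92.4, 90.5 and 82.1 CPM in Untreated cells (0.415 ± 0.07, edgeR adjusted p = 4.23e-05). In both genes the pMXs libraries lay together above the Untreated ones. Trp53inp1, a p53 partner in stress, rose by 0.77, Bbc3, which encodes the BH3-only protein Puma, by 0.75, Ei24 by 0.40 and Bax, the pore-forming effector, by 0.37 (edgeR adjusted p from 5.31e-05 to 0.00186).

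Zmat3, an RNA-binding p53 target, rose by 0.23 (edgeR adjusted p = 0.0181), which did not pass without pMXs replicate 2 (edgeR adjusted p = 0.0597), pMXs replicate 250 (0.0596) or Untreated replicate 1 (0.0739). Tnfrsf10b, the mouse TRAIL receptor gene, was at 106 to 109 CPM in pMXs cells and 118 to 136 CPM in Untreated cells (-0.24 ± 0.07, edgeR adjusted p = 0.00557). The death receptor gene Fas had -0.01, Apaf1, the scaffold of the apoptosome, -0.02, and Phlda3, an inhibitor of AKT, 0.06 (edgeR adjusted p of 0.942, 0.859 and 0.63). Their 95% intervals lay between -0.25 and 0.30 on the log2 scale.

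Of the 27 calls, 20 held in all 15 alternative settings, and none of the 27 changed sign in any. Within replicate numbers 100 and 250 alone, which hold 2 pMXs libraries and 1 Untreated library, Cdkn2a, Ccng1, Sesn3, Zmat3, Btg2 and Tnfrsf10b did not pass (edgeR adjusted p from 0.0568 for Cdkn2a to 0.923 for Sesn3), and Sesn1 (-0.32) and Phlda3 (0.31) did. Genes with a p53 half-site in their promoter window rose in 8 of 10 cases and fell in 0, against 10 and 3 of the 18 genes whose windows held none. Of all genes tested 35% rose and 35% fell. The median log2 fold change was 0.389 in both, and no test was made.

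Wild-type Tet2 was then set against the empty vector, both at day 5. Gdf15 rose by more than any of the other 34 genes, and 4 further genes rose by smaller amounts: Bid, Tnfrsf10b, Perp and Mdm2. Sesn1 fell. These 6 genes make 17.1% of the 35, beside 12.5% of all genes tested that changed (6.01% up and 6.52% down), so the share is near the background. Groups did not overlap for 17 of the 35 genes, 11 higher and 6 lower, beside 34.6% of all genes (17.7% higher and 16.9% lower). An unadjusted edgeR p under 0.05 was found for 15 of the 35 genes, beside 25.2% of all genes. Both of these shares were above those of all genes, and no test of the 35 genes as a set was made. The median log2 fold change of the 35 genes was 0.02, against -0.00367 for all genes.

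Gdf15 was at 44.3, 40.5 and 29.9 CPM in Tet2-WT replicates 1, 2 and 250, against 18.4, 17.3 and 14.2 CPM in pMXs replicates 2, 100 and 250. All 3 Tet2-WT libraries were above all pMXs libraries, and replicate 250 was the lowest in both groups. The log2 fold change was 1.20 ± 0.17 (95% interval 0.84 to 1.56, edgeR adjusted p = 0.000279). With a term for the set of replicate numbers, 1 and 2 against 100 and 250, it was 1.06 (edgeR adjusted p = 1.52e-05). The Gdf15 call was the only one of the 6 that held in all 15 alternatives. Among these, the contrast within replicate numbers 1 and 2 (1.20, edgeR adjusted p = 4.57e-05) has 1 pMXs library, replicate 2, and that within 100 and 250 (0.91, edgeR adjusted p = 0.000357) has 1 Tet2-WT library, replicate 250. In each the lone library is assumed to vary like the other groups.

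Bid was at 54.7, 50.6 and 52.5 CPM with Tet2-WT and at 44.1, 43.6 and 42 CPM with pMXs. The groups did not overlap (0.28 ± 0.07, edgeR adjusted p = 0.0103). The call was lost without Tet2-WT replicate 1 (0.25, edgeR adjusted p = 0.0607) or pMXs replicate 250 (0.26, edgeR adjusted p = 0.0517). Tnfrsf10b was at 133, 129 and 127 CPM with Tet2-WT and at 106, 108 and 109 CPM with pMXs. This put the Tet2-WT libraries back within the Untreated range of 118 to 136 CPM (0.265 ± 0.07 over pMXs, edgeR adjusted p = 0.0182). Without Tet2-WT replicate 1 or 2, or any one of the 3 pMXs libraries, its edgeR adjusted p was 0.0526 to 0.0814.

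Perp was at 518, 518 and 439 CPM with Tet2-WT and at 406, 400 and 343 CPM with pMXs, without overlap (0.36 ± 0.11, edgeR adjusted p = 0.0469). Leaving out Tet2-WT replicate 1 or 2, or pMXs replicate 2, 100 or 250, gave edgeR adjusted p values of 0.0585 to 0.209, and a term for the set of replicate numbers, 1 and 2 against 100 and 250, ended the call as well (0.31, edgeR adjusted p = 0.051). Mdm2 was at 505, 484 and 488 CPM with Tet2-WT and at 402, 427 and 402 CPM with pMXs, also without overlap (0.26 ± 0.08, edgeR adjusted p = 0.0481). Its call was lost without any one of the 6 libraries, with edgeR adjusted p from 0.0804 to 0.157.

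Sesn1 was at 17.6, 18 and 21 CPM with Tet2-WT and at 26, 24.5 and 30.1 CPM with pMXs. Every Tet2-WT library was below every pMXs library, and replicate 250 was the highest of both groups (-0.51 ± 0.13, edgeR adjusted p = 0.0146). The call held with the term for the set of replicate numbers (-0.43, edgeR adjusted p = 0.00669). The call was lost without Tet2-WT replicate 1 (-0.46, edgeR adjusted p = 0.0734), Tet2-WT replicate 2 (-0.475, edgeR adjusted p = 0.0673) or pMXs replicate 250 (-0.42, edgeR adjusted p = 0.0851). The number of genes called among the 35 fell to 2 without Tet2-WT replicate 1, to 2 without Tet2-WT replicate 2, to 3 without pMXs replicate 100 and to 1 without pMXs replicate 250. Over all genes the calls fell as well, from 1830 to 1107, 1135, 1175 and 1097 in the same order.

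**Figure D3:**
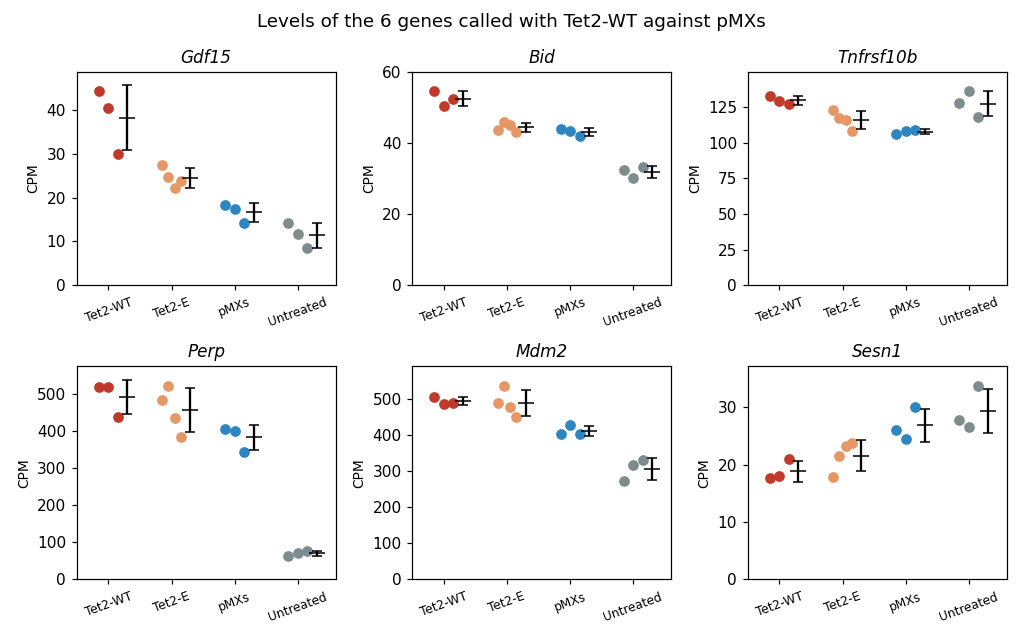
Level in CPM of the 6 genes that changed between Tet2-WT and pMXs, in each library (points), with the mean and SD of each group (black). Tet2-WT libraries lie above pMXs libraries for Gdf15, Bid, Tnfrsf10b, Perp and Mdm2 and below them for Sesn1, and Tet2-E libraries of Gdf15 lie between.

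Of the 29 genes that did not pass, Cdkn2b was closest. It was at 59.5, 53.3 and 48.6 CPM in Tet2-WT replicates 1, 2 and 250 and at 71.1, 66 and 61.9 CPM in pMXs replicates 2, 100 and 250. All Tet2-WT libraries were below all pMXs ones (-0.30 ± 0.10, edgeR adjusted p = 0.0543). Cdkn2b passed with DESeq2 (-0.31, DESeq2 adjusted p = 0.027) and with RLE scaling (-0.31, edgeR adjusted p = 0.0473). It did not pass in 7 of the 15 alternatives. With the replicate number as a block, Cdkn2b passed (-0.36, edgeR adjusted p = 0.00374), and so did Ei24, a p53 target of the endoplasmic reticulum (0.22, edgeR adjusted p = 0.0475, against 0.0558 without the block). Ei24 also passed with DESeq2 (0.19, DESeq2 adjusted p = 0.0163) and with a filter of 1 CPM in 3 libraries (0.20, edgeR adjusted p = 0.0488). A fit of only the 2 groups called Ei24 too (0.20, edgeR adjusted p = 0.0284). Ei24 did not pass with the term for the set of numbers (0.205, edgeR adjusted p = 0.0502), within numbers 1 and 2 (edgeR adjusted p = 0.207) or within 100 and 250 (0.206), while Cdkn2b passed with the term (-0.37, edgeR adjusted p = 0.00186). Cdkn2b also passed within numbers 1 and 2, with the 1 pMXs library (-0.34, edgeR adjusted p = 0.0453), within 100 and 250, with the 1 Tet2-WT library (-0.40, edgeR adjusted p = 0.0195), and without Tet2-WT replicate 1 (-0.38, edgeR adjusted p = 0.0424).

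The core of the pathway did not pass with Tet2-WT in the main fit. Of the 29 genes not called there, 10 passed in at least 1 of the 15 alternatives. Besides Cdkn2b, Ei24, Trp73 and Trp63 these were Cdkn2a, Bbc3, Ccng1, Sesn3, Gadd45a and Plk2, each in a fit of only the 2 groups. That fit gave -0.20 for Cdkn2a (edgeR adjusted p = 0.0391). It called 14 of the 35 genes, beside 2270 of the 13862 genes it tested. Trp53 was at 133 to 150 CPM with Tet2-WT and 150 to 153 CPM with pMXs (-0.12, 95% interval -0.40 to 0.17, edgeR adjusted p = 0.657). Cdkn1a had 0.16 (0.00142 to 0.32, edgeR adjusted p = 0.194), Cdkn2a had -0.20 (-0.37 to -0.02, edgeR adjusted p = 0.146) and Rb1 had 0.09 (-0.15 to 0.33, edgeR adjusted p = 0.681). Trp73 had 0.49 (edgeR adjusted p = 0.0887, and 0.0492 without Tet2-WT replicate 250) and Trp63 had -1.22 (edgeR adjusted p = 0.0905, and 0.0354 without pMXs replicate 2). The Trp63 difference leaned on the 52 reads of pMXs replicate 250, where other pMXs libraries had 15 and 35.

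Markers of cell types differed beside these changes. Fibroblast markers summed to 16600 to 17700 CPM with Tet2-WT and 21600 to 25500 CPM with pMXs. Of these, Vim overlapped and Twist2 was higher with Tet2-WT (6.54 to 8.02 CPM against 4.72 to 6.28 CPM). The others were lower in every Tet2-WT library than in every pMXs library. Summed epithelial markers overlapped, at 382 to 600 CPM with Tet2-WT and 462 to 612 CPM with pMXs. Within that sum Cdh1 was lower with Tet2-WT, at 180 to 262 CPM against 273 to 355 CPM with pMXs. Krt8 was higher (12.9 to 23 CPM against 6.78 to 10.9 CPM), as was Krt18 (5.25 to 9.85 CPM against 1.65 to 2.64 CPM). The other epithelial markers overlapped. The 7 neural markers summed to 700 to 1040 CPM with Tet2-WT against 540 to 646 CPM with pMXs. Most of that sum was Nes, at 645 to 949 CPM with Tet2-WT and 451 to 534 CPM with pMXs. Map2 was lower with Tet2-WT, at 25.3 to 33.7 CPM against 49.1 to 55.2 CPM with pMXs, and so was Gap43. Tubb3, Sox1, Pax6 and Neurod1 overlapped, so the sum does not show a rise of the neural markers as a set. The 7 keratinocyte markers summed to 10 to 20.8 CPM with Tet2-WT against 4.79 to 8.31 CPM with pMXs. Krt6a, Krt14, Col17a1 and Sprr1a were higher in every Tet2-WT library, while Krt5, Krtdap and Ivl overlapped. The 8 macrophage markers summed to 213 to 309 CPM with Tet2-WT and 81 to 94.6 CPM with pMXs, nearly all of it Laptm5, at 282, 281 and 191 CPM with Tet2-WT. The defining macrophage gene Adgre1 was at 0 in all Tet2-WT and pMXs libraries, and Ptprc was at 0 in all but Tet2-WT replicate 1, which had 0.0469 CPM. The part of these marker shifts in the results was not tested.

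With the stalling mutant Tet2-E, none of the 35 genes passed against pMXs (0 by edgeR and 0 by DESeq2), beside 0.0479% of all genes (0.0205% up and 0.0274% down). By unadjusted p under 0.05 in edgeR, 7 of the 35 genes stood out, beside 9.33% of all genes: Gdf15, Mdm2, Ei24, Perp and Ccng1 with positive values and Bbc3 and Sesn1 with negative ones. Groups did not overlap for 10 of the 35 genes, 6 higher and 4 lower, beside 10.2% of all genes (5.65% higher and 4.5% lower). Both shares, by unadjusted p and by overlap, were above those of all genes, and no test of the 35 genes as a set was made. Leaving out any one library gave 0 calls as well, also without Tet2-E replicate 100, with its low Tet2 level, and without Tet2-E replicate 2, with its low OKSM levels.

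Gdf15 was at 27.4, 24.7, 22.1 and 23.7 CPM in Tet2-E replicates 1, 2, 100 and 250, against 18.4, 17.3 and 14.2 CPM with pMXs. All 4 Tet2-E libraries were above all 3 pMXs libraries (0.55 ± 0.16, 95% interval 0.21 to 0.89, edgeR adjusted p = 0.244). With the term for the set of replicate numbers, Gdf15 passed (0.50, edgeR adjusted p = 0.0416), the only such case in the alternatives. Mdm2 was at 487, 536, 476 and 449 CPM with Tet2-E against 402, 427 and 402 CPM with pMXs, above in every library (0.25 ± 0.08, edgeR adjusted p = 0.28). Sesn1 was at 17.8, 21.5, 23.3 and 23.8 CPM with Tet2-E against 26, 24.5 and 30.1 CPM with pMXs, below in every library (-0.31 ± 0.12, edgeR adjusted p = 0.419).

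Perp with Tet2-E was at 484, 523, 436 and 384 CPM, against 406, 400 and 343 CPM with pMXs. Tet2-E replicate 250 fell inside the pMXs range (0.25 ± 0.11, edgeR adjusted p = 0.459). Bid was at 43.7, 45.9, 45.1 and 43.3 CPM with Tet2-E and 44.1, 43.6 and 42 CPM with pMXs, and Tnfrsf10b at 123, 117, 116 and 108 CPM with Tet2-E and 106, 108 and 109 CPM with pMXs. In both genes the groups overlapped (0.04 and 0.10, edgeR adjusted p = 0.889 and 0.665). Cdkn2b was at 56.4 to 71.4 CPM with Tet2-E, across the pMXs range of 61.9 to 71.1 CPM (-0.04, 95% interval -0.24 to 0.15).

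**Figure D4:**
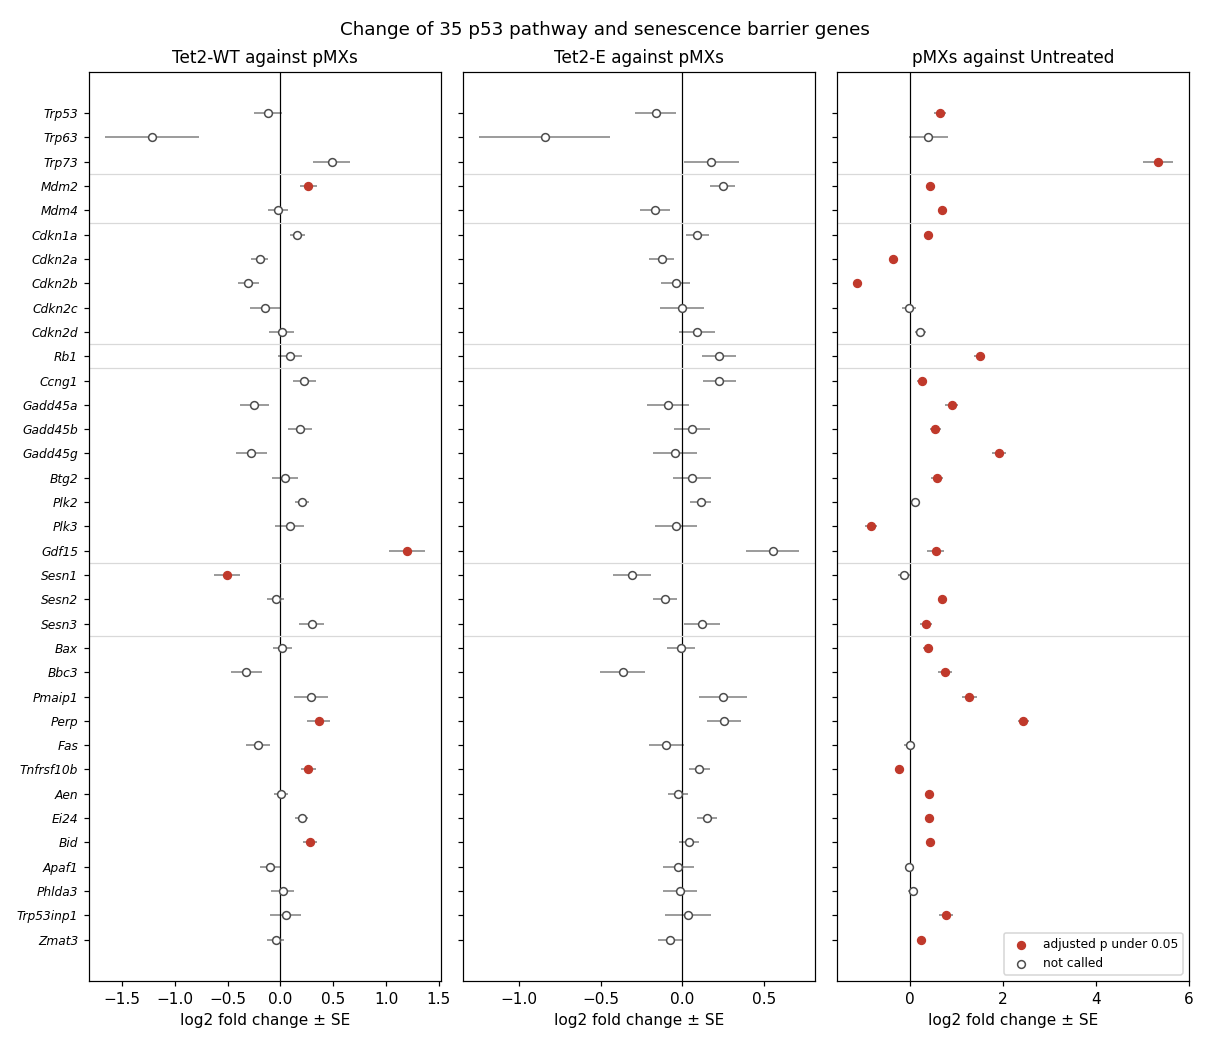
Log2 fold change with its standard error for the 35 genes, grouped by role, in Tet2-WT against pMXs, Tet2-E against pMXs, and pMXs against Untreated. Each panel has its own x axis, filled points passed an edgeR adjusted p under 0.05, and 6, 0 and 27 points are filled from left to right.

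The first 2 of these comparisons share the pMXs libraries, so the vectors were also compared directly. Gdf15 and Bid were higher with Tet2-WT than with Tet2-E, and no gene was lower, which makes 5.71% of the 35 genes beside 4.62% of all genes (2.43% higher and 2.19% lower). An unadjusted p under 0.05 was found for 4 of the 35 genes, beside 15.6% of all genes. Groups did not overlap for 5 of the 35 genes, beside 15% of all genes (7.48% higher and 7.54% lower). These were Gdf15, Bid, Mdm4 and Tnfrsf10b, higher with Tet2-WT, and Gadd45a, lower. Gdf15 was at 29.9 to 44.3 CPM with Tet2-WT and 22.1 to 27.4 CPM with Tet2-E (0.65 ± 0.15, edgeR adjusted p = 0.0217). Its call was lost without Tet2-WT replicate 1 or 2 or Tet2-E replicate 2, 100 or 250 (0.53 to 0.65, edgeR adjusted p from 0.0503 to 0.142) and within replicate numbers 100 and 250, with 1 Tet2-WT library (0.38, edgeR adjusted p = 0.162). Within numbers 1 and 2, with 2 libraries of each, it was 0.70 (edgeR adjusted p = 0.000655).

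Bid was at 50.6 to 54.7 CPM with Tet2-WT and 43.3 to 45.9 CPM with Tet2-E (0.24 ± 0.06, edgeR adjusted p = 0.0333). The call was lost without any one of the libraries other than Tet2-E replicate 2, that is Tet2-WT replicates 1, 2 and 250 and Tet2-E replicates 1, 100 and 250 (edgeR adjusted p from 0.0648 to 0.191). Cdkn2b had -0.26 ± 0.09 (edgeR adjusted p = 0.138) and passed with the replicate block (-0.28, edgeR adjusted p = 0.0172). For the other genes that changed between Tet2-WT and pMXs, the direct contrast of the vectors did not pass: 0.02 for Mdm2 (95% interval -0.15 to 0.18), 0.11 for Perp (-0.12 to 0.33), 0.16 for Tnfrsf10b (0.03 to 0.30) and -0.20 for Sesn1 (-0.45 to 0.05).

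The other genes of these pathways were counted over 6 further lists. In pMXs against Untreated cells, where 70.1% of all genes changed (35% up and 35% down), of 35 other p53 targets tested 17 rose and 8 fell, of 23 p53 regulators 11 rose and 1 fell, and of 23 genes of the retinoblastoma pathway 14 rose and 5 fell. Regulators of Cdkn2a and Cdkn2b had 7 rising and 3 falling of 18, senescence-associated secreted factors and related markers 5 and 10 of 23, and core apoptosis genes 8 and 10 of 22. The shares that changed were 71.4, 52.2, 82.6, 55.6, 65.2 and 81.8% in that order, some below and some above that of all genes. Median log2 fold changes were 0.19, 0.28, 0.44, 0.13, -0.505 and -0.235 in the same order.

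Genes known to hold the Ink4 locus down moved in both directions. Ezh2 and Suz12, subunits of the Polycomb complex that represses Cdkn2a, rose by 1.32 ± 0.09 and 1.34 ± 0.08 on the log2 scale (edgeR adjusted p = 3.34e-09 and 1.09e-09). Cbx7, a reader of the Polycomb mark, was at a mean of 9.76 ± 1.54 CPM in pMXs cells and 2.88 ± 0.459 CPM in Untreated cells (SD, n = 3 each, edgeR adjusted p = 8.38e-07). Hmga2, Tbx3 and Tbx2, whose products can each restrain Cdkn2a, had log2 fold changes of -1.70, -0.93 and -0.535 (edgeR adjusted p = 4.03e-10, 9.46e-07 and 0.00778). Hmga2 was at 157, 157 and 147 CPM in pMXs cells against 504, 520 and 468 CPM in Untreated cells.

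In the retinoblastoma pathway, the cyclin gene Ccne1 rose by 1.15 and the E2F gene E2f2 by 2.73 (edgeR adjusted p = 8.9e-10 and 9.06e-11), while Rbl2, a relative of Rb1, fell by 0.93 on the log2 scale (edgeR adjusted p = 1.84e-06). Among secreted factors the protease gene Plau and the binding protein gene Igfbp5 fell, with log2 fold changes of -3.21 and -4.05 (edgeR adjusted p = 2.12e-11 and 1.14e-06), while the binding protein gene Igfbp3 and the chemokine gene Ccl7 rose by 1.62 and 0.93 (edgeR adjusted p = 6.19e-05 and 1.49e-07). Igfbp3 was at 1010, 1090 and 1180 CPM in pMXs cells against 237, 273 and 558 CPM in Untreated cells. Lmnb1, a lamin gene that senescent cells lose and a related marker in that list, rose by 1.55 (edgeR adjusted p = 1.36e-06).

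With Tet2-WT against pMXs, 7 of 35 other p53 targets rose and 2 fell (25.7%, beside 12.5% of all genes). None of 23 p53 regulators changed by edgeR (0) or DESeq2 (0), and 2 had an unadjusted p under 0.05. Of 23 genes of the retinoblastoma pathway 2 rose and 1 fell (13%), and of 18 regulators of Cdkn2a and Cdkn2b 2 fell (11.1%). Of 23 secreted factors and related markers 2 rose and 5 fell (30.4%), and of 22 core apoptosis genes 3 fell (13.6%). The share of the secreted factors was thus also above the 12.5% of all genes. The total of 24 changed genes fell to 12 without Tet2-WT replicate 1, to 11 without Tet2-WT replicate 2, to 11 without pMXs replicate 100 and to 10 without pMXs replicate 250. The 9 other p53 targets became 3, 4 and 5 without Tet2-WT replicates 1, 2 and 250, 4 and 3 without pMXs replicates 100 and 250, 4 within numbers 1 and 2 and 5 within 100 and 250. The 3 core apoptosis genes became 0 without Tet2-WT replicate 2, pMXs replicate 100 or pMXs replicate 250, 1 without Tet2-WT replicate 1, and 0 within either set of numbers. The 7 secreted factors became 4 without Tet2-WT replicate 1 or 2 or pMXs replicate 100 or 250, and 4 with no filter on low counts. The retinoblastoma pathway had 1 of its 3 without Tet2-WT replicate 2 or pMXs replicate 250 and 5 in a fit of only the 2 groups, and the regulators of Cdkn2a and Cdkn2b had 1 of 2 without Tet2-WT replicate 250 or pMXs replicate 100.

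Epha2, a receptor tyrosine kinase gene that p53 can induce, was at 125, 124 and 99.5 CPM with Tet2-WT and 72.9, 73.6 and 64.9 CPM with pMXs. Tigar, a p53 target that lowers glycolysis, was at 72.8, 75.5 and 61.8 CPM with Tet2-WT and 54, 47 and 43.7 CPM with pMXs. Ccnd1, the cyclin D1 gene, was at 1860, 1680 and 1760 CPM with Tet2-WT and 1300, 1370 and 1320 CPM with pMXs. None of the 3 overlapped between groups, their log2 fold changes were 0.72, 0.54 and 0.41 (edgeR adjusted p = 0.000442, 0.00157 and 0.000733), and all 3 calls held in every alternative.

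The falls of Igfbp4 and Ets1 also held in every alternative. Igfbp4, an insulin-like growth factor binding protein gene, fell by 2.47 on the log2 scale (11.9, 12.5 and 25.5 CPM with Tet2-WT against 54, 101 and 119 CPM with pMXs, edgeR adjusted p = 0.00436). Ets1, a factor that can activate Cdkn2a, fell by 0.36 (edgeR adjusted p = 0.00353). With Tet2-E none of the 6 lists had a gene that changed by edgeR or DESeq2 (0 of each; by unadjusted p under 0.05 they had 6, 0, 1, 2, 5 and 3 in the order given). Between Tet2-WT and Tet2-E, Epha2 and Ccnd1 were higher with Tet2-WT (0.52 and 0.29, edgeR adjusted p = 0.00594 and 0.0107). The Ccnd1 difference did not pass without Tet2-WT replicate 1 (0.25, edgeR adjusted p = 0.0901). Ets1, Hmga2 and Plau were lower with Tet2-WT (-0.32, -0.36 and -0.70), and Ets1 did not pass without Tet2-WT replicate 2 or 250 (edgeR adjusted p = 0.0734 and 0.0509). Hmga2 did not pass without Tet2-WT replicate 2 or 250 or Tet2-E replicate 1, 2 or 100 (edgeR adjusted p from 0.0506 to 0.103). Within replicate numbers 100 and 250, where Tet2-WT has 1 library, the calls for Epha2, Ccnd1, Ets1 and Plau did not hold. Their log2 fold changes there were 0.32, 0.28, -0.31 and -0.64.

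**Figure D5:**
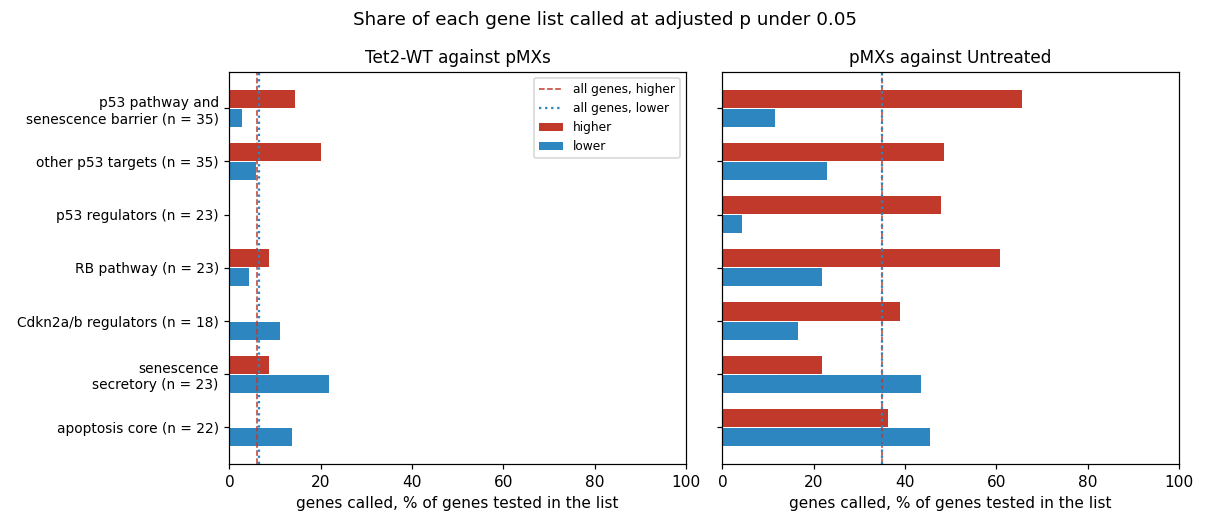
Percent of the tested genes of each list that passed an edgeR adjusted p under 0.05, higher (red) or lower (blue), in Tet2-WT against pMXs and in pMXs against Untreated, with vertical lines at the percent for all genes. Higher calls exceed lower calls for the 35 genes and the other p53 targets in both panels, and the secretory list has more lower calls.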

How the data were processed

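Libraries from a stranded mRNA kit were sequenced in pairs. Read counts per gene were deposited by the authors, made with STAR 2.6.1a on mm9 and featureCounts 1.6.2, per the submitters' processing notes, where DESeq2 1.26.0, R 3.6.2, bedtools 2.27.1 and SAMtools 1.7 are listed too. A strand setting is not given in the sources used here. Genes were matched by symbol, and no mm9 coordinates were used. RefSeq promoter windows are on GRCm38.p6, and exon overlaps come from the GENCODE annotation on GRCm38.

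The counts were fitted by edgeR 4.0.16 under R 4.3.3: filterByExpr (count minimum 10, total minimum 15), TMM scaling, and 1 robust quasi-likelihood fit of all 13 libraries with a mean per group. Adjusted p-values are Benjamini-Hochberg values over 14607 genes, and 0.05 was the threshold. The standard error is the absolute log2 fold change over the square root of the F value. CPM uses TMM-scaled totals. The common biological coefficient of variation was 0.102. Replicates differed beyond counting noise (chi-square per degree of freedom 6.63 to 42.9), so no library was taken for a second sequencing of another. This does not show that the libraries came from separate cultures. The procedure was tested on simulated counts drawn from the kind of model that was fitted, with few genes changed and no link between libraries. That test cannot check a comparison where most genes changed, as in pMXs against Untreated, or one with linked libraries.

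All 35 genes are named. Values per library are given for those called in a comparison with a Tet2 vector and the 12 with the smallest p in pMXs against Untreated, and other lists give up to 3 genes per direction. The members and lists were chosen with earlier results of these data known. Alternatives were DESeq2 1.42.0, RLE scaling, a filter of 1 CPM in 3 libraries or none, a replicate block, a term for and contrasts within the sets of replicate numbers (1 and 2, 100 and 250), fits without the other groups, and fits without each library in turn. The labels say that libraries were made in 2 sets without saying which, and the numbers are not tied to those sets. Same-numbered day 5 libraries had residuals that correlated at 0.12 to 0.34, those of the same set but another number at 0.078 to 0.36, those from opposite sets of numbers at -0.42 to -0.05, and those of Untreated with same-numbered day 5 libraries at -0.042 to 0.17. Every same-numbered day 5 pair was over 0.1, so the numbers were taken to link day 5 libraries, although pairs within a set correlated as highly, and a link by number and one by set cannot be told apart. The main fit holds no term for such a link, and the block and the set term are given as alternatives. Tet2-WT holds replicates 1, 2 and 250 and pMXs holds 2, 100 and 250. A difference between the sets of numbers can therefore enter the main contrast of these groups. Contrasts within sets leave 1 library in pMXs (1 and 2), in Tet2-WT and in Untreated (100 and 250).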

Additional observations from a re-analysis of the deposited data

Results flagged for a closer look

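With 4 libraries in Tet2-E, 35 sets of values could be searched for 1 library far from the others, and 2 were found, a number near the 1 in 20 that chance gives. Trp63 was lowest in Tet2-E replicate 1, at 0.524 CPM, where the other 3 libraries were at 1.16 to 1.29 CPM. Trp73 was lowest in Tet2-E replicate 100, at 4.26 CPM, where the other 3 were at 5.47 to 5.66 CPM. This is also the library with the lower Tet2 level.

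Gdf15 and Bid responded differently to the 2 Tet2 vectors, by the direct test of Tet2-WT against Tet2-E, which equals the difference of their changes over pMXs. The difference was 0.646 on the log2 scale for Gdf15 (edgeR adjusted p = 0.0217) and 0.241 for Bid (edgeR adjusted p = 0.0333). All 3 Tet2-WT libraries were above all 4 Tet2-E libraries for both genes. Neither call held in all 16 alternatives, as Gdf15 passed in 10 of them and Bid in 7. These 2 genes make 5.71% of the 35, beside 4.62% of all genes.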

How the results depend on the processing

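In pMXs against Untreated, 23 to 28 of the 35 genes and 9340 to 10466 of all genes were called over the alternatives. With the replicate block, which the Untreated libraries do not share, Cdkn2d (0.306, edgeR adjusted p = 0.0157) and Sesn1 (-0.245, 0.0376) passed there and Ccng1 (0.248, 0.0541) did not. In Tet2-WT against pMXs the 6 genes called became 3 within replicate numbers 100 and 250 and 14 in a fit of only the 2 groups, and 1 to 6 when a library was left out. All genes called there were 1097 to 1821 with a library left out (1830 in all; at most 1175 without Tet2-WT replicate 1 or 2 or pMXs replicate 100 or 250), and the 24 genes of the other lists were 13 within numbers 1 and 2 and 10 to 21 with a library left out. With the term for the set of replicate numbers the count stayed at 6, with Cdkn2b gained and Perp lost. In Tet2-E against pMXs the 7 genes called overall became 141 with DESeq2, 17 with no filter, 93 with the replicate block, 152 with the set term, 103 and 83 within the sets, 0 with only the 2 groups, and 1 to 50 with a library left out (50 without Tet2-E replicate 100, 1 or 2 without Tet2-E replicate 1 or 2 or pMXs replicate 100 or 250). Of the 35 genes 1 passed there with the set term, and of the other lists 1 with the block, 1 with the set term, 1 within numbers 1 and 2, and 3 within 100 and 250. Between Tet2-WT and Tet2-E the 675 genes called became 1052 with the set term, 1015 within numbers 1 and 2 and 335 to 675 with a library left out (335 and 339 without Tet2-WT replicates 1 and 2). The 2 of the 35 genes became 1 with no filter, 0 within numbers 100 and 250 and 0 to 1 with a library left out, and the 5 of the other lists became 8 with the block, 8 with the set term, 12 within numbers 1 and 2 and 3 to 5 with a library left out (3 without Tet2-WT replicate 2). The cause was not tested, beyond that contrasts within sets and with a library left out rest on fewer libraries. Among the 35 genes the block changed no other call than those given. Trp63 and the Untreated Trp73 libraries rest on few reads, which limits their values.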
